A study of Mus musculus with 2 samples.

Results

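The myeloid cells described here were the barcodes that carried RNA of at least 2 of 10 genes of macrophages, dendritic cells, monocytes and neutrophils (Lyz2, Csf1r, C1qa, C1qb, Cd68, Cd14, Itgax, S100a8, S100a9 and Ms4a7) and no RNA of Cd3d, Cd3e, Cd3g, Cd79a, Siglech or Epcam, which mark T cells, B cells, plasmacytoid dendritic cells and epithelium. They were sought among barcodes with at least 500 detected genes and less than 25% of their UMIs from mitochondrial genes. A UMI is a unique molecular identifier, so a UMI count is a count of captured RNA molecules. The rule found 147 members among 11862 kept barcodes, of 16451 deposited. There were 105 of 7120 kept barcodes in control 1 and 42 of 4742 in control 2, which were 1.47% (1.21 to 1.78) and 0.886% (0.639 to 1.20) with exact (Clopper-Pearson) 95% intervals. Because these genes chose the members, every level of a member against the other barcodes below is a description without a test.

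The study was about knockdown of the muscarinic acetylcholine receptors M1 and M3 in the mouse intestine. Its design text assigned the knockdown mice to organoids and the control mice to suspensions of single cells, and both libraries here are controls: control 1 is titled M1 Control and control 2 is titled M3 Control. Both came from the proximal small intestine of C57BL/6 mice, and no allele, Cre driver, treatment, age or number of animals was given for either. Tissue was loosened in cold EDTA and dissociated with TrypLE, villus and crypt fractions were pooled, and RNA was captured by its poly(A) tail on the 10x Chromium 3′ platform. The 2 libraries were treated as 1 group, and the labels do not say whether they came from separate animals. The difference between them is the only spread between libraries. It cannot be told apart from a difference between the M1 and M3 controls. The protocol is one that releases epithelium, and the number of phagocytes in it is no estimate of the number in the tissue.

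Macrophages of the small intestine are renewed largely by blood monocytes, which enter the lamina propria, lose Ly6c2 and Ccr2, and take on class II molecules, Cx3cr1 and complement C1q as they mature. They engulf dying cells and microbes and are known for tolerating food and bacterial antigen without strong inflammation. Conventional dendritic cells carry antigen to lymph nodes, and neutrophils are short-lived blood phagocytes rich in S100a8 and S100a9.

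The deposited barcodes held 54451793 UMIs in control 1 and 36139325 in control 2, with no barcode under 500 UMIs. The members held 302636 and 144263 of these, with a median of 1835 and 1662.5 UMIs per barcode and of 791 and 723 genes. Members were shallower than the barcodes used for comparison: the median was 3963 and 3407.5 UMIs in the 1675 and 1218 kept barcodes with Cd3 RNA and without Epcam, and 3323 and 3502.5 in the 1841 and 1270 with Epcam and without Cd3. The libraries shared 17 barcode sequences, of which 8 were kept in both and none was a member in both. Doublets were not called. Exactly 3 members in each library had more than 10000 UMIs.

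The genes of the rule were unequally represented. Lyz2, the lysozyme of phagocytes, was detected in 101 of 105 and 39 of 42 members, or 96.2% and 92.9%. C1qa was found in 85.7% and 81.0%, C1qb in 86.7% and 76.2% and Ms4a7, a membrane protein of tissue macrophages, in 75.2% and 66.7%. Csf1r, the receptor for the macrophage growth factor, was found in 61.0% and 57.1% and Cd68, a lysosomal glycoprotein, in 61.0% and 50.0%. Itgax, the integrin CD11c, was found in 18.1% and 21.4%, and Cd14, the lipopolysaccharide coreceptor, in 8.57% and 7.14%. The neutrophil genes S100a8 and S100a9 had no UMI in any member, which allows shares of up to 2.86% and 7.14% of members with a UMI. So 8 of the 10 genes chose all members, and the macrophage genes among them chose most.

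Some RNA of the same genes was found in the barcodes used for comparison. Lyz2 had a UMI in 2.93% and 2.05% of the Cd3-positive and 3.37% and 2.20% of the Epcam-positive barcodes, which were deeper than the members. C1qa had one in 1.67% and 1.07% of the Cd3-positive and 1.79% and 0.945% of the Epcam-positive barcodes, and Csf1r in 1.13% and 0.411% of Cd3-positive barcodes. Part of the C1qa detection came from barcodes that were macrophage-like by the gate described below. That gate needs at least 2 genes, and C1qa is among them. Of the 28 and 13 Cd3-positive barcodes with C1qa, 23 and 5 were macrophage-like. Of the 33 and 12 Epcam-positive ones, 14 and 9 were. Without the macrophage-like barcodes, C1qa was found in 0.299% and 0.657% of Cd3-positive and 1.03% and 0.236% of Epcam-positive barcodes. Of the 49 and 25 Cd3-positive barcodes with Lyz2, 27 and 2 were macrophage-like. Of the 62 and 28 Epcam-positive barcodes with Lyz2, 12 and 6 were. The rule fixed high detection in members, so no comparison is drawn. Itgax was common elsewhere, since 10.6% and 13.3% of Cd3-positive barcodes had a UMI of it, an integrin that intestinal T cells also make.

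Gates of 8 genes for each cell type then sorted the members, with at least 2 genes needed. Macrophage-like members (gate genes among them C1qa, C1qb, C1qc, Ms4a7, Csf1r, Adgre1 and Fcgr1) were 97 in control 1 and 38 in control 2, or 92.4% (85.5 to 96.7) and 90.5% (77.4 to 97.3). Dendritic-like members (Flt3, Zbtb46, Xcr1, Clec9a, Cd209a, Ccr7, Zfp366 and Cacnb3) were 1 in each library, and neutrophil-like members were 0 in each. Each member went to the gate with most of its genes detected. In control 1, 1 member had equal highest numbers in more than 1 gate, and 6 and 3 members had under 2 genes in every gate. A member could thus reach 2 genes in a second gate as well. For example, a barcode of 1643 UMIs in control 1 had 4 macrophage and 2 dendritic gate genes and counts as macrophage-like. The gate reuses genes of the rule, so it describes the members and is no separate check of their label. It also took in 6 and 4 members without C1q that are called monocyte-like below. Dendritic-like members were too few to describe as a group, and a planned comparison of macrophage-like with dendritic-like members is not given.

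A finer split was chosen after the values had been seen. Members with at least 1 UMI of C1qa, C1qb or C1qc were called C1q-positive, and members with no C1q UMI and at least 5 of 14 monocyte genes (among them Ly6c2, Ccr2, Chil3, F13a1, Plac8 and Treml4) were called monocyte-like. C1q-positive members were 92 and 34, or 87.6% (79.8 to 93.2) and 81.0% (65.9 to 91.4). Monocyte-like members were 7 and 6, or 6.67% (2.72 to 13.3) and 14.3% (5.43 to 28.5), and the intervals of the libraries overlapped for both. The remaining 6 and 2 members are described one by one further on. Depth entered this split, because a shallow barcode can hardly show 5 monocyte genes: the monocyte-like members had medians of 9124 and 8275 UMIs against 1685.5 and 1448 in the C1q-positive members. No C1q-positive member had more than 4 monocyte genes, and the 3 deepest of them, with 8809, 9180 and 10208 UMIs, had 1, 2 and 2. A single C1q UMI was enough to place a barcode among the C1q-positive members.

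The promoters of the C1q and lysozyme genes are shown because C1q divides the members and because the lysozymes Lyz2 (phagocytes) and Lyz1 (Paneth cells) are near copies in their 3′ transcript ends. In GENCODE M21 on GRCm38, C1qb (chr4:136880129-136886187), C1qc (chr4:136889804-136893065) and C1qa (chr4:136895917-136898803) lie side by side on the minus strand. Lyz2 (chr10:117277331-117282321) and Lyz1 (chr10:117287797-117292868) are also neighbours on the minus strand. The 200 bases below end 51 bases before the gene start given by RefSeq (GRCm38.p6) and are printed 5′ to 3′ on the gene's strand. They lie at chr4:136886251-136886450 for C1qb, chr10:117282323-117282522 for Lyz2 and chr10:117292919-117293118 for Lyz1, all on the minus strand. Capitals mark the matched motif letters.
C1qb: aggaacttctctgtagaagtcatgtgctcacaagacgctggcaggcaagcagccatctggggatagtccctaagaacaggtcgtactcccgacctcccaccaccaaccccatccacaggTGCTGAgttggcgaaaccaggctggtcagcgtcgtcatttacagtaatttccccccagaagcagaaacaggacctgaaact
Lyz2: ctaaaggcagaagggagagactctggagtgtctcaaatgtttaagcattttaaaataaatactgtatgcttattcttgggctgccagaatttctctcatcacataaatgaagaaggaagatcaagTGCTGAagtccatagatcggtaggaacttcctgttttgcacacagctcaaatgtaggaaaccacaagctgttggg
Lyz1: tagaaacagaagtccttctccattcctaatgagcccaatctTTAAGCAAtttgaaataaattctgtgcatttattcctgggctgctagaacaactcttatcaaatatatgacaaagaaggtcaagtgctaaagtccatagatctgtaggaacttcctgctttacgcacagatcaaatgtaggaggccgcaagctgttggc

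Motifs of 3 factor families of phagocytes were searched on both strands of these windows. They were GAGGAA (the core bound by ETS factors such as Spi1), TGCTGA (the core of Maf recognition elements) and TTGCNNAA (the C/EBP palindrome). TGCTGA was found in C1qb from -131 to -126 and in Lyz2 from -125 to -120, counted from the gene start. Lyz1 had TTGCNNAA on the opposite strand from -209 to -202, and no other match was found in the 3 windows. Among the same windows of 32851 promoters, 18.8% held GAGGAA, 13.1% TGCTGA and 8.11% TTGCNNAA, so such matches are common and are letters, not shown binding sites. The Lyz1 and Lyz2 windows were 73.8% identical. The last 300 bases of their transcripts, where 3′ reads fall, were 93.8% identical, and how reads matching both were assigned is not given in the sources used here. Among the monocyte-like members with Fn1 RNA, described further on, 4 with 220 to 526 Lyz2 UMIs had 0 or 1 Lyz1 UMI. The other members with Fn1, both of control 2, held nearly all of the 243 Lyz1 UMIs of that library's monocyte-like members. Whether reads of either gene were assigned to the other was not tested.

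The C1q-positive members carried much RNA of complement, antigen presentation and lipid handling. Their C1q UMIs per barcode ran from 1 over a median of 30.5 to 241 in control 1 and from 1 over 19 to 105 in control 2. The C1q genes made up a median of 1.96% and 1.41% of a barcode's UMIs. The class II genes Cd74, H2-Aa, H2-Ab1 and H2-Eb1 took a median of 6.78% and 5.33%. Class II shares and class II UMIs of barcodes are of these genes throughout, while the class II list is longer. In summed UMIs per 1000000 UMIs of the group (CPM, with exact Poisson 95% intervals that cover counting error only), C1qa, a chain of the C1 complex, stood at 7476 (7119 to 7845) and 6861 (6225 to 7546). Cd74, the invariant chain of class II, stood at 32200 and 30869 CPM and Apoe, the apolipoprotein that exports lipid, at 28023 and 26154. The libraries thus lay close together for all 3.

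**Figure D1:**
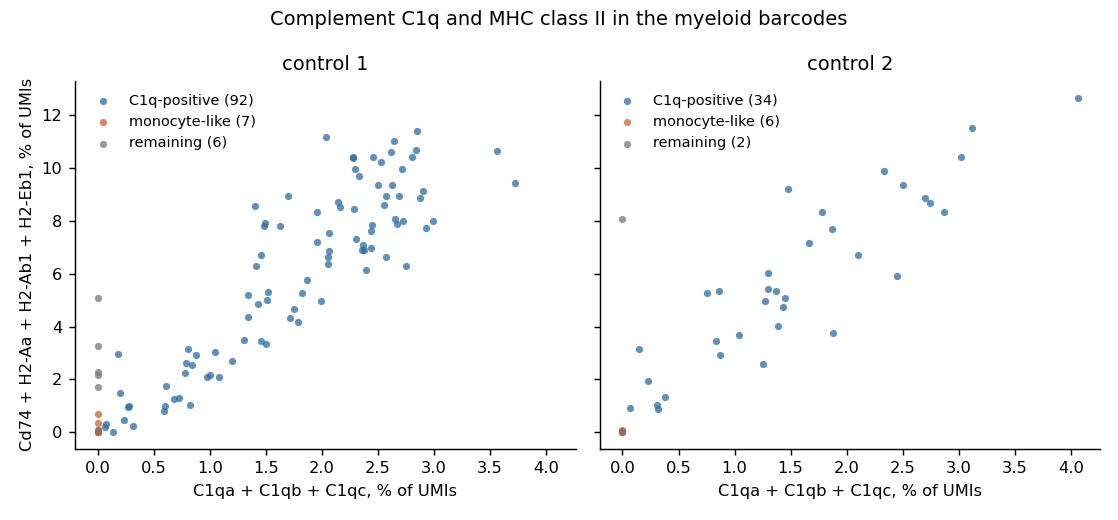
Each point is 1 member, by library and by subset. The x axis gives the share of its UMIs from C1qa, C1qb and C1qc, in percent. The y axis gives the share from the class II genes Cd74, H2-Aa, H2-Ab1 and H2-Eb1, in percent. The C1q-positive members spread around median class II shares of 6.78% and 5.33%, while the monocyte-like members lie at 0 C1q, as the split requires, and near 0 class II.

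Single C1q-positive barcodes were unequal. Lyz2 ran from 0 over a median of 11 to 130 UMIs in control 1 and from 0 over 8.5 to 43 in control 2. Cxcl9, a chemokine induced by interferon gamma, was present in 43 of 92 and 14 of 34 barcodes, with up to 56 and 25 UMIs in 1 of them. It was thus a gene of some C1q-positive members and not of all at this depth. Ccr2, the receptor by which monocytes leave marrow and enter tissue, had a single UMI in 1 of the 92 barcodes and none in the 34.

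The monocyte-like members numbered 13 and had little class II RNA, a median of 0.00993% and 0.0327% of UMIs. Lyz2 was at 23766 and 20473 CPM in them and 6764 and 6571 in the C1q-positive members, a log2 ratio of C1q-positive over monocyte-like of -1.81 and -1.64 (1 CPM is added to each level in all log2 ratios). Cd74 was at 979 (747 to 1259.8) and 326 (190 to 522) CPM in the monocyte-like members. The S100a4 gene, a calcium-binding protein of motile cells, had 144 and 105 UMIs, against none in the C1q-positive members. Hp, for haptoglobin, had 29 and 27 against none. The split did not use these genes, but S100a4 and Hp are named because their ratios in this contrast were the lowest outside the lists. Lyz2 is a gene of the rule. Both subsets also come from the same barcodes whose genes were examined to choose the split. The values therefore describe the 13 barcodes and are no separate check of the split.

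Within the 13, the fibronectin gene Fn1, a product of classical monocytes, was present in 6 (3 in each library) and absent from 7 (4 and 3). The 6 with Fn1 had 220 to 526 Lyz2 UMIs and the 7 without had 29 to 143, so the ranges did not overlap. F13a1, the coagulation factor XIII subunit of classical monocytes, had 2 to 10 UMIs in the 6 and none in the 7. Ly6c2, the surface marker of classical monocytes, had 1 to 30 UMIs in all 6, and 1 UMI in 1 of the 7. The 6 thus shared these classical genes, but other genes did not divide the 13: Ccr2 had 2 to 19 UMIs in the 6 and up to 16 in the 7, Chil3 had 5 to 49 and up to 20, and Nr4a1, a factor of nonclassical monocytes, up to 8 and up to 11. Treml4, a receptor of nonclassical monocytes, had 1 to 8 UMIs in all 7 without Fn1 and was seen in 1 of the 6 with it. Ace, for angiotensin-converting enzyme, had 2 to 9 UMIs in the 7 and 0 to 2 in the 6. Cx3cr1, the fractalkine receptor, was present in all 13, with 1 to 5 UMIs in the 6 and 1 to 7 in the 7. The 13 barcodes were divided by Fn1 after the values were seen, so these ranges are a description. F13a1, Ly6c2, Ccr2, Chil3, Nr4a1, Treml4 and Ace are also among the monocyte genes that chose the 13, with at least 5 needed. A barcode without some of these genes therefore had to carry others of the list. How far that requirement shaped the ranges was not tested.

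Among the 6 with Fn1, 2 barcodes of control 2 with 8832 and 11016 UMIs also had 130 and 111 Lyz1 UMIs, while the other 11 monocyte-like members had 0 or 1. The Paneth cell defensin Defa30 had 7 and 0 UMIs in these 2, and Defa24 had 1 in each. The other 4 with Fn1 had 220 to 526 Lyz2 UMIs without such Lyz1, so high Lyz2 did not come with Lyz1 in general. The goblet and Paneth markers, Lyz1 included, took 0.0979% and 0.631% of monocyte-like UMIs in control 1 and control 2, and without Lyz1 they took 0.0962% and 0.165%. The part of Paneth cell RNA in these values was not tested.

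The C1q-positive members, with 220714 and 61940 UMIs in sum, were then set against the monocyte-like members, with 61306 and 52118, across all genes. A gene was counted when its UMIs in both subsets together reached 10 in each library, and it is called higher or lower when its ratio was at least 2-fold in the same direction in both libraries. Of 1717 genes counted, 211 (12.3%) were higher in C1q-positive members and 398 (23.2%) were lower. Of these, 35 had no UMI in the monocyte-like members and 18 none in the C1q-positive members. With control 1 alone, where a single library had to pass, 842 genes were higher and 1165 lower, and with control 2 alone 378 and 597. When only members with at least 3000 UMIs entered, 76 were higher. The mean log2 ratio over the libraries was then 5.76 for Cd74 and 3.08 for Apoe, against 5.80 and 3.19 with all members. The numbers of genes counted under these alternatives are not given here, so their counts cannot be read as shares.

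Antigen presentation separated the subsets most among the lists not used for the split. Of 7 class II genes counted, 6 were higher in C1q-positive members and none lower, with a list median log2 ratio of 4.86 and 6.56 in control 1 and control 2 against -0.18 and -0.25 over all genes counted (genes with no UMI in a subset in both libraries are set to 3 UMIs there). Cd74 reached 5.04 and 6.56. H2-Aa, the alpha chain of class II, had 2733 and 677 UMIs in C1q-positive and 26 and 0 in monocyte-like members. The complement list, with 4 of 5 higher, contains the genes that made the split.

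Chemokines differed by member rather than as a list, with 4 of 7 higher in the C1q-positive members and 2 lower. Cxcl9 had 254 and 53 UMIs in C1q-positive and none in monocyte-like members. Ccl24, which attracts eosinophils, had 60 and 28 against none, and Pf4, a heparin-binding chemokine, 80 and 17 against none. Ccl9, which attracts myeloid cells, went the other way, with none in C1q-positive and 24 and 25 UMIs in monocyte-like members. Ccl6, a related chemokine, had 12 and 1 against 29 and 48. Chemokine and adhesion receptors were mostly lower in C1q-positive members, 6 of 10 against 2 higher. Ccr2 had 1 and 0 UMIs in C1q-positive and 68 and 31 in monocyte-like members. Cx3cr1 stood at 272 (207 to 349.9) and 274 (159.9 to 439) CPM in C1q-positive and at 326 (199 to 504) and 345 (205 to 546) in monocyte-like members, so the intervals overlapped. Its log2 ratio of -0.26 and -0.33 turned above 0 under some alternatives given in the closing section.

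Of 12 myeloid transcription factors counted, 7 were lower in C1q-positive members and 2 higher. Maf, a factor of mature macrophages, was among the higher ones. Its C1q-positive levels were 245 (184 to 319) and 226 (124 to 379) CPM, while monocyte-like members had 114 (45.9 to 235) and 38.4 (4.65 to 139). The monocyte-like values of Maf rest on 7 and 2 UMIs, and the intervals overlapped in each library. Cebpb, a factor of monocytes and inflammatory responses, stood at 127 and 145 against 1256 and 1842 CPM, or -3.30 and -3.66 on the log2 scale. Klf4, needed by monocytes, had 4 and 2 UMIs in C1q-positive members against 20 and 31 in monocyte-like members. Zeb2, a repressor active in monocytes and macrophages, had a log2 ratio of -2.32 and -4.36. The factor shared by all myeloid cells, Spi1, stood at 557 and 436 against 783 and 1094 CPM and was in neither call.

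**Figure D2:**
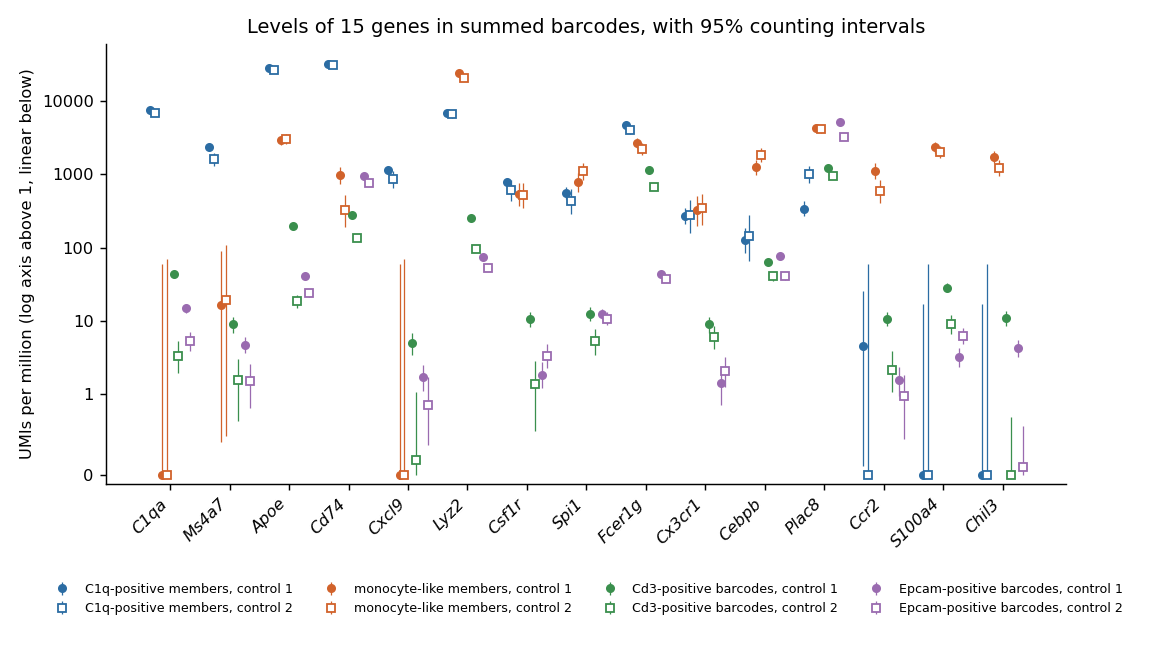
Levels of 15 genes in the C1q-positive and monocyte-like members and in the Cd3-positive and Epcam-positive barcodes of each library, in CPM on an axis that is logarithmic above 1 and linear below, with exact Poisson 95% intervals as error bars. C1qa and Cd74 lie high in C1q-positive members (Cd74 at 32200 and 30869), and Lyz2 lies higher in monocyte-like members (23766 and 20473).

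Lysosome, lipid and iron genes were divided. Of 8 iron, heme and lipid genes counted, 4 were higher in C1q-positive members and none lower: Apoe had a log2 ratio of 3.27 and 3.11, and Fth1 and Ftl1, the chains of the iron store ferritin, had 2.78 and 3.40 for Fth1 and 2.27 and 2.19 for Ftl1. Of 18 lysosomal genes counted, 4 were higher and 2 lower. Lgmn, the asparagine endopeptidase that cuts antigen, had 274 and 55 UMIs against 14 and 2, and Ctsl, for cathepsin L, had 101 and 34 UMIs against none. Cst3, the cathepsin inhibitor cystatin C, was lower at -1.13 and -1.46. Fc receptor and ITAM or ITIM signalling genes had 1 higher and 7 lower of 16, with Fcgr4, an activating receptor for IgG, the higher one at 3.28 and 1.42.

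Dissociation and heat shock genes, which rise when tissue is taken apart, had 6 lower and none higher of 8, with a median of -1.25 and -2.22. Interferon response genes had 3 lower and none higher of 9, and growth factor and cytokine receptors 2 lower and none higher of 10, shares near the 23.2% of all counted genes that were lower. Ifitm3, an antiviral membrane protein, had -2.83 and -3.85, and Ifngr1, a chain of the interferon gamma receptor, -3.44 and -3.14. Of 10 monocyte genes, used for the split, 9 were lower. Plac8 among them is also made by enterocytes, with 5133 and 3236 CPM in Epcam-positive barcodes against 339.8 and 1001 in C1q-positive and 4290 and 4164 in monocyte-like members.

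**Figure D3:**
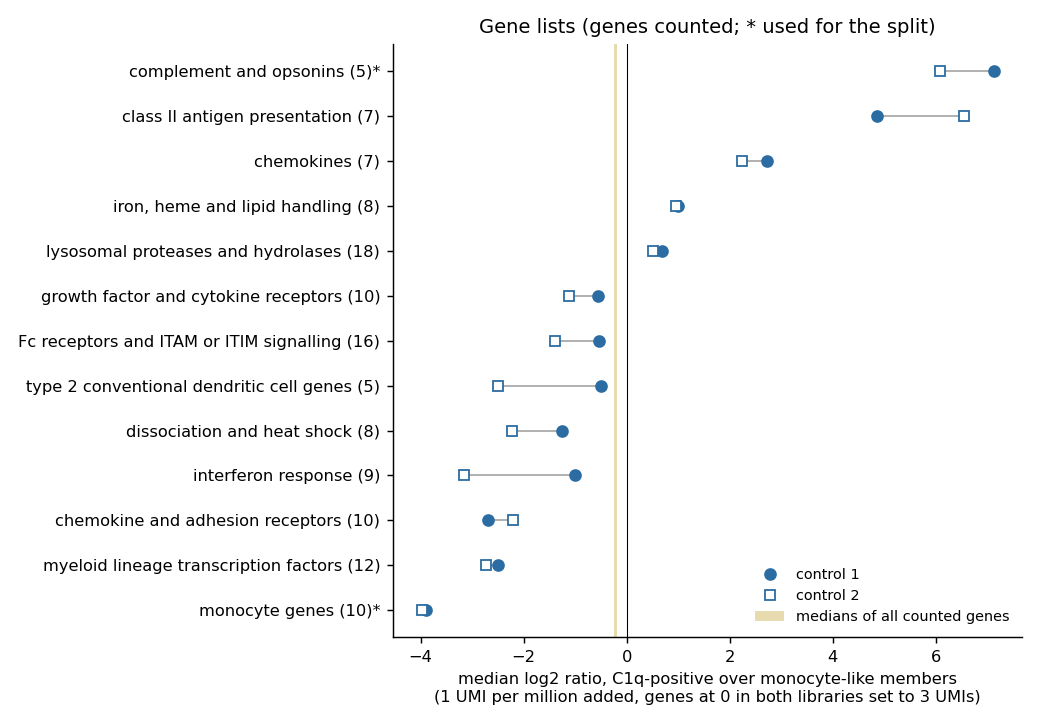
Median log2 ratio of C1q-positive over monocyte-like members for each list with at least 3 genes counted, with 1 point for each library and the median of all counted genes as a vertical band. The class II list lies at 4.86 and 6.56 and the transcription factors at -2.50 and -2.74, and asterisks mark the lists that the split used.

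Enterocyte RNA moved with this contrast. All 6 enterocyte markers counted were higher in C1q-positive members, where the list of 10 took 0.434% and 1.30% of UMIs against 0.0897% and 0.0729% in monocyte-like members. The list reached 5% of UMIs in 4 and 2 C1q-positive barcodes. In control 2, 1 barcode of 4500 UMIs held 556 of the 804 enterocyte UMIs, and without it the share was 0.432%. Its part in the other differences was not tested. The T and NK markers had 2 genes counted and none called, and Cd3d, Cd3e and Cd3g are at 0 by the rule.

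The genes outside all lists were ranked by the ratio of the library in which it was nearer 0. With none in the monocyte-like members, C1q-positive members had 398 and 101 UMIs of Apol7c, an apolipoprotein L, and 234 and 42 of Dnase1l3, an endonuclease that degrades DNA of dead cells. Adamdec1, a metalloproteinase of gut macrophages, had 146 and 36, Pla2g2d, a secreted phospholipase, 107 and 18, and Ptgs1, for cyclooxygenase 1, 84 and 18. The rest of the 10 were Npl (165 and 38), Gbp2b (123 and 29), Gnl2 (62 and 29), Cd72 (76 and 17) and Asb2 (114 and 17 UMIs). In the other direction, beside S100a4 and Hp, monocyte-like members had Ldlrad3 (30 and 20 UMIs), Arhgef37 (23 and 36) and Emilin2 (23 and 18), all without a UMI in C1q-positive members.

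All members together were described against the other 7015 and 4700 kept barcodes. Levels are summed UMIs, so deep barcodes weigh more. C1q-positive members held 220714 and 61940 of the 302636 and 144263 member UMIs. Monocyte-like members held 61306 and 52118, and the remaining members 20616 and 30205. In control 2 these include a barcode of 11076 UMIs with mast cell genes, described further on. The part of each subset in the ratios below was not tested unless counts by subset are given. Of 15375 genes counted, 1024 (6.66%) were higher in members and 4429 (28.8%) lower, of which 2384 had no UMI in members. Given control 1 alone, 1933 were higher and 6049 lower, and given control 2 alone 1906 and 7097, with the numbers of genes counted not given here. With 10 CPM added in place of 1, the number lower was 1735. Many lower calls rested on too few UMIs: when counts under 3 were set to 3 UMIs in each library, a floor added after the values were seen, 1024 genes were higher and 1174 lower. Lower calls of list genes are therefore given below with that floor. The median over all counted genes was -0.67 and -0.86 on the log2 scale. The members' own genes chose them, so the counts are read as a portrait only.

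Recognition and uptake genes filled much of that portrait. All 17 Fc receptor and ITAM or ITIM signalling genes counted were higher in members, with a median of 3.96 and 5.23. Fcer1g and Tyrobp, the adaptors that carry the signal, had 2.75 and 2.93 for Fcer1g and 3.29 and 3.76 for Tyrobp. Pattern recognition receptors had 11 of 14 higher and none lower, with a median of 2.78 and 2.91. Scavenger and apoptotic cell receptors had 5 of 9 higher (Mrc1, Msr1, Stab1, Axl and Lrp1) and none lower. Cd163, the hemoglobin scavenger receptor, had no UMI in any member. Of 20 lysosomal genes, 17 were higher and none lower, with a median of 3.15 and 2.96.

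Presentation and costimulation were also high. Class II genes had 10 of 11 higher with a median of 4.84 and 4.38, and Cd74 reached 5.46 and 5.11. Ctss, the cathepsin that trims the invariant chain, had 5.08 and 4.98. Costimulation and checkpoint ligands had 8 of 10 higher and none lower. Complement genes, in part used by the rule, had 8 of 9 higher: C1qa had 8.34 and 9.51. Apoe reached 8.26 and 9.32. Iron, heme and lipid genes had 8 of 16 higher.

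Of 11 cytokine genes counted, 6 were higher (Il1b, Tnf, Il27, Ebi3, Tgfb1 and Il1r2) and 1, Il18, was lower. Il1b, an inflammatory cytokine made by monocytes and macrophages, had 50 and 28 UMIs in members and a log2 ratio of 5.16 and 6.78. Il10, the anti-inflammatory cytokine associated with gut macrophages, had no UMI in any member. Of 11 chemokine genes, 7 were higher and Ccl5, a product of T cells, was lower. Cxcl9 had 255 and 180 UMIs in members, and 127 of those in control 2 came from 1 dendritic-like barcode and 53 from the C1q-positive members.

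Receptors and factors were mixed. Growth factor and cytokine receptors had 9 of 16 higher and none lower, with Csf1r, used by the rule, at 7.51 and 7.51. Chemokine and adhesion receptors had 10 of 17 higher and 2 lower, with Cx3cr1 at 6.19 and 6.21. Of 24 transcription factors, 12 were higher and 2 lower with the floor (Id2 and Relb). Spi1 had 6.04 and 6.54. Zbtb46, the factor of conventional dendritic cells, and Irf4 were 2-fold lower only without the floor.

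Dendritic lists were mixed too. Type 1 conventional dendritic genes had 8 of 12 higher and 1 lower with the floor, Itgae, an integrin that intestinal T cells carry. Clec9a was among the 8, and in control 2 all its 11 UMIs were in 1 dendritic-like barcode. That barcode held 19129 of the 144263 member UMIs of control 2, and its part in the other dendritic calls was not tested. Type 2 genes had 5 of 10 higher and 2 lower with the floor (Cd7 and Ltb), and mature migratory genes 2 of 10 higher and 2 lower (Relb and Ccl5). Neutrophil granule genes had 3 of 12 higher, Mmp9, Msrb1 and Csf3r. S100a8 and S100a9, genes of the rule, had no UMI in members, but at 4.73 and 4.56 CPM of S100a8 in the other kept barcodes, 3 UMIs in members would already be a higher level, so no direction can be given. The retinoid and tolerance list had 1 of 8 higher, Tgfbi, and 2 lower with the floor, Aldh1a1 and Ido1. Monocyte genes had 10 of 12 higher, interferon response genes 10 of 15 and stress genes 2 of 15, all with none lower.

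The receptors that named the study were nearly missing from the members. Chrm3, encoding the M3 receptor, had no UMI in members and 1248 and 1432 UMIs in the other kept barcodes. Chrm1, encoding M1, had 1 and 0 UMIs in members, and Chrna7, the nicotinic receptor reported on macrophages, had none. Chrm3 was called lower in members than in the other kept barcodes. Chrm1 and Chrna7 were not, so no difference from those barcodes is claimed for them. A count of 0 in 302636 and 144263 member UMIs allows up to 3 UMIs in each library, so a low level could not be detected at this depth.

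Genes outside all lists with the highest ratios in members were Aif1, the calcium-binding protein IBA1 of macrophages and microglia, Wfdc17, a small secreted protein, and Apol7c. Aif1 had 580 and 148 UMIs and a log2 ratio of 7.59 and 7.63. Wfdc17 had 517 and 69 UMIs and a ratio of 8.04 and 7.62, and Apol7c 405 and 150 UMIs and a ratio of 7.40 and 8.02. These 3 genes, which the rule did not use, had most of their UMIs in C1q-positive members: 559 and 134 for Aif1, 475 and 39 for Wfdc17 and 398 and 101 for Apol7c. Dnase1l3, Adamdec1, Cd300c2, Gbp2b, Pla2g7, Cyp4f18 and Clec4a1 completed the 10. The 5 lowest were Gm44174, Reg4, Sytl2, Aoc1 and Dtx1, of which Reg4, a gene of secretory epithelial cells, had 1 UMI in members and the others none.

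Against Cd3-positive barcodes, 813 of 12122 genes (6.71%) were higher in members and 4231 (34.9%) lower. Against Epcam-positive barcodes, 1518 of 12586 (12.1%) were higher and 3512 (27.9%) lower. With the floor the numbers lower were 1616 and 1114. These comparators were also defined by the genes that the rule excluded.

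Most members had little Malat1, a long noncoding RNA kept in the nucleus that is abundant in most intact cells. Malat1 gave less than 0.1% of UMIs in 82 of 105 and 27 of 42 members, or 78.1% (69.0 to 85.6) and 64.3% (48.0 to 78.4). Among C1q-positive members these were 76 of 92 and 26 of 34, or 82.6% (73.3 to 89.7) and 76.5% (58.8 to 89.3). Among monocyte-like members they were 1 of 7 and 0 of 6, so most low-Malat1 members, 76 of 82 and 26 of 27, were C1q-positive. In the other barcodes the share was 13.2% and 12.7% of Cd3-positive and 76.6% and 60.4% of Epcam-positive barcodes. The C1q-positive members thus lay nearer to the Epcam-positive than to the Cd3-positive barcodes in this share.

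**Figure D4:**
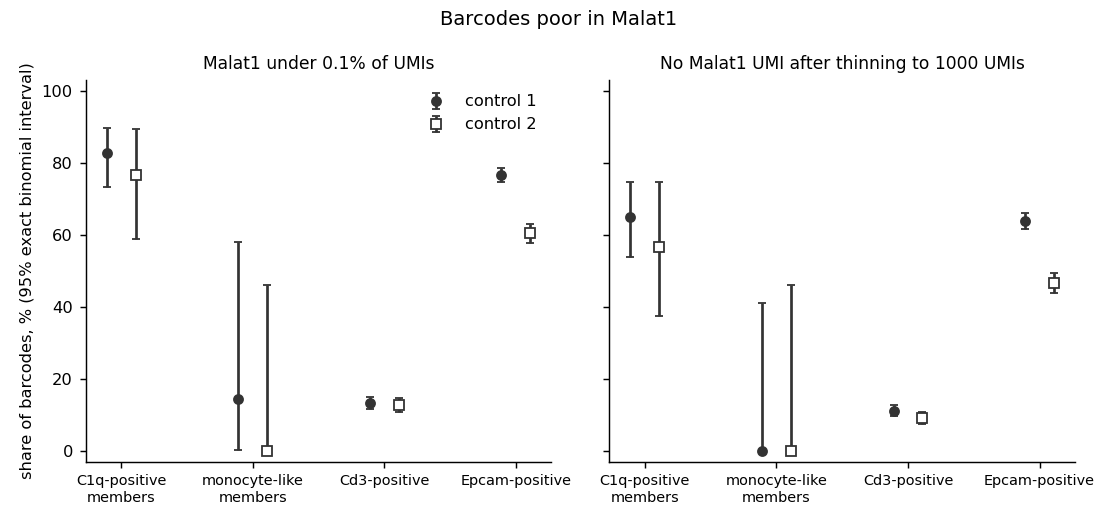
Share of barcodes, in percent with exact 95% binomial intervals, that had less than 0.1% of UMIs from Malat1 (left) or no Malat1 UMI after thinning to 1000 UMIs (right), in the C1q-positive and monocyte-like members and the Cd3-positive and Epcam-positive barcodes of each library. C1q-positive members stand at 82.6% and 76.5% on the left and 64.8% and 56.7% on the right, and Cd3-positive barcodes at 13.2% and 12.7% and 11.2% and 9.08%.

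Depth differed between these groups, so barcodes were thinned to 1000 UMIs each, leaving out those with fewer. No Malat1 UMI was then found in 57 of 88 and 17 of 30 C1q-positive members, or 64.8% and 56.7%, and in none of the 7 and 6 monocyte-like members. The share was 11.2% and 9.08% of 1597 and 1189 Cd3-positive barcodes and 63.7% and 46.7% of 1787 and 1232 Epcam-positive barcodes. Without thinning, no Malat1 UMI was found in 54.3% and 44.1% of C1q-positive members, 7.22% and 5.34% of Cd3-positive and 39.3% and 24.3% of Epcam-positive barcodes. After thinning, the C1q-positive and Epcam-positive shares lay close together in control 1, and their intervals overlapped in both libraries. The 3 deepest C1q-positive members of control 1 were unlike each other: Malat1 took 0.375% of 8809 UMIs, 0.0218% of 9180 and 4.07% of 10208, the last with 7 C1q UMIs and 0.323% class II.

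**Figure D5:**
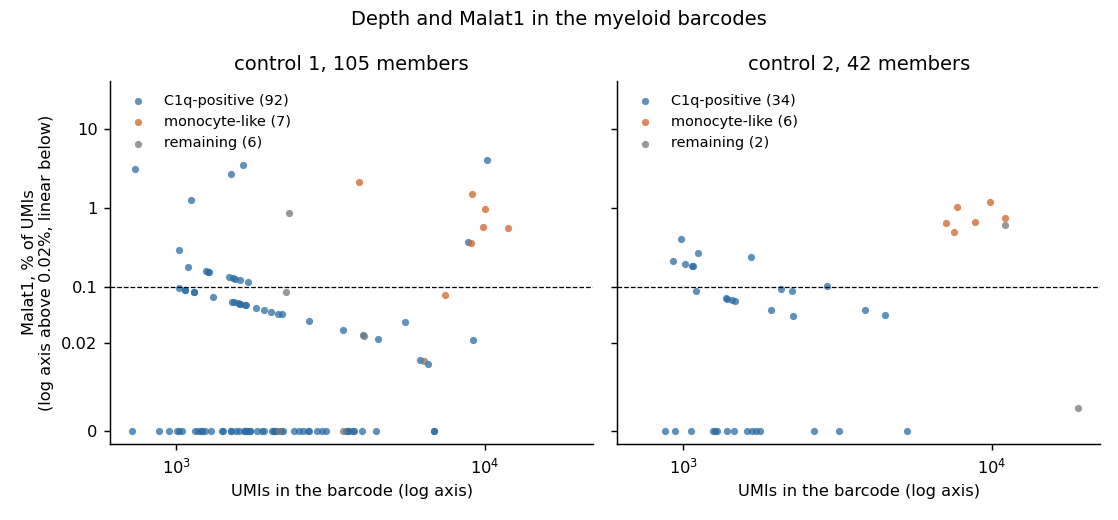
Each point is 1 member, with its UMIs on the x axis (log scale) and its Malat1 share in percent on the y axis, by library and subset. The monocyte-like members lie at the deep end, with medians of 9124 and 8275 UMIs and of 0.578% and 0.706% Malat1, and most C1q-positive members lie at or near 0 Malat1 at medians of 1685.5 and 1448 UMIs.

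Low-Malat1 C1q-positive members were compared with the 16 and 8 that had more. At this depth barcodes on the 2 sides could differ by few Malat1 molecules. The median Malat1 share in the 16 and 8 was 0.171% and 0.207%, at medians of 1494.5 and 1071 UMIs. Malat1 had 604 and 22 UMIs in them in sum, and the 604 include those of a barcode of 10208 UMIs with 4.07% Malat1. Of 847 genes counted, 69 (8.15%) were higher in low-Malat1 members and 8 (0.945%) lower. Malat1 itself, which made the groups, is among the 8. Only 13 of the 69 remained higher with counts under 3 set to 3 UMIs. Cst3, Plac8 and Fabp1, a fatty acid carrier of enterocytes, were higher among the list genes, and the T cell granzyme Gzma and the goblet mucin Muc2 were lower. All C1q-positive barcodes with at least 5% enterocyte UMIs, 4 and 2, were on the low-Malat1 side. Their part in the Plac8 and Fabp1 calls was not tested. Cst3 differed by 1.85 and 1.12 on the log2 scale. The class II and C1q genes were in neither call: C1qa differed by 1.21 and 0.25 and Cd74 by 1.32 and -0.02, at least 2-fold in control 1 only. Without the deepest barcode of the Malat1-rich group in control 1, of 10208 UMIs, these control 1 values were 0.79 and 0.89, under 2-fold, and Cst3 had 1.39. The median mitochondrial share was 0.493% and 1.42% in low-Malat1 C1q-positive members against 2.71% and 1.26% in the others, so the libraries did not point the same way. Without the low-Malat1 members, 56 genes were higher and 196 lower in C1q-positive against monocyte-like members, with the number of genes counted not given here. The part of low Malat1 in that contrast was otherwise not tested.

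The 8 remaining members were of several kinds. In control 1, a barcode of 2150 UMIs was dendritic-like, with 2 UMIs of Cd209a, 1 of Flt3, 1 of Zfp366 and 70 of class II genes. A barcode of 2274 UMIs had 1 Cd209a and 49 class II UMIs, and one of 4062 had 92 class II UMIs. A barcode of 3475 UMIs had 119 Lyz2 and 177 class II UMIs with 8 of Il22ra2, the soluble decoy receptor for IL-22. One of 6339 UMIs had 255 Cst3, 4 Clec9a and 11 Stfa2 UMIs. These 5 thus carried class II or dendritic genes without C1q. The last, of 2316 UMIs with 17 Lyz2 and 5 Csf1r UMIs, had 4 monocyte genes, 1 short of the monocyte-like threshold.

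In control 2, a barcode of 19129 UMIs was dendritic-like, with 11 UMIs of Clec9a and 5 of Xcr1, both of type 1 dendritic cells that take up dead cells. It had 1049 Cst3, 127 Cxcl9 and 1546 class II UMIs, or 8.08% of its total. A barcode of 11076 UMIs was no phagocyte by its genes: it had 1471 UMIs of Mcpt1, 470 of Mcpt2, 55 of Cpa3 and 10 of Kit, the proteases and growth factor receptor of mast cells, and no Lyz2. It met the rule through 1 UMI of Ms4a7 and 1 of Itgax.

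The rule's edges were wide, because it turned on single molecules. At least 2 of the 10 genes were present in 228 and 99 kept barcodes, and 123 and 57 of them were set aside for an excluded gene, Cd3 genes in 79 and 35 and Epcam in 77 and 38. Exactly 1 UMI of an excluded gene set aside 27 and 10, of which 24 and 6 were macrophage-like by the gate and 22 and 5 had C1q. Exactly 2 rule genes, the least that made a member, were found in 10 and 3 members. Just outside, 82 and 46 barcodes had exactly 1 rule gene and no excluded gene, most often Lyz2 (30 and 13) or Itgax (20 and 16).

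Neutrophil-like barcodes lay just outside the rule. In control 1, a barcode of 4036 UMIs had 207 UMIs of S100a8, 212 of S100a9, 13 of Csf3r, 7 of Cxcr2 and 11 of Retnlg, and 1 UMI of Epcam kept it out. In control 2, a barcode of 3062 UMIs had 123, 114, 10, 6 and 19 UMIs of these genes, and 1 UMI of Cd3e kept it out. Their Malat1 shares were 2.63% and 1.89%. S100a8 was present in 5 and 2 kept barcodes in all, none a member. Dendritic-like barcodes by the gate also lay outside, in 39 of 7015 and 16 of 4700 other kept barcodes. Members had 1 of 105 and 1 of 42, so such barcodes were more in number outside but not by share. The member shares rest on 1 barcode in each library. Of the 39 and 16, 22 and 8 had Siglech RNA and 19 and 10 had Epcam RNA.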

How the data were processed

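Droplet libraries of 2 control samples were used, control 1 and control 2, which were treated as 1 group. The authors deposited whole-number UMI counts per gene and barcode for 32285 features, unnormalized; per the file headers they were written by Cell Ranger 7.1.0. The submitters' processing notes list this version together with 6.1, and GRCm38 (mm10) as the genome build. Which version made which step, and how the deposited barcodes were chosen, is not given in the sources used here.

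Barcodes with at least 500 genes and under 25% mitochondrial UMIs were kept, and the membership rule, gates and lists were applied to raw counts. The members and lists were chosen with earlier results of these data known. UMIs were summed per group and library and scaled to 1000000 (CPM), with exact Poisson 95% intervals. Log2 ratios were formed after adding 1 CPM. Genes needed 10 UMIs in each library, and calls needed a 2-fold difference in the same direction in both. With 1 group there was no test and no p-value. Shares have exact Clopper-Pearson 95% intervals, and a count of 0 was given a limit of 3 counts. Intervals cover counting error only.

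Named genes are the rule and gate genes, list genes with the largest ratio or level (up to 6 a list), and, outside the lists, the 10 highest and 5 lowest by the ratio nearer 0. The same was done for C1q-positive against monocyte-like members, a comparison added after the values were seen. The ratio calculation was tested on simulated data. Alternatives changed the gene and mitochondrial filters, the rule, the gates, the Malat1 threshold, the added value, the UMI minimum and the libraries entering. Work was done in Python 3.11.15 with numpy 2.4.6, scipy 1.17.1, pandas 2.3.3 and matplotlib 3.10.9. Promoter windows came from RefSeq on GRCm38.p6 and gene positions from GENCODE M21. No doublet caller was run. Some genes of the lists are not reported here.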

Additional observations from a re-analysis of the deposited data

Results flagged for a closer look

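Barcodes with fewer than 500 genes were outside the comparisons, and macrophage RNA appeared among them. In control 1, 62 of 1394 such barcodes with under 25% mitochondrial UMIs met the membership rule, and all 62 were macrophage-like by the gate and had a C1q UMI. In control 2, 26 of 1682 did, of which 23 were macrophage-like and all 26 had a C1q UMI. Their median UMIs were 666.5 and 625, and Malat1 gave under 0.1% of UMIs in 41 and 10 of them. None was dendritic-like or neutrophil-like. There is no control sample without myeloid cells, and the part of free RNA in these barcodes was not tested.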

How the results depend on the processing

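Of the shares and gene counts recomputed under each alternative, 80 values stayed near the main value and 31 moved, and of the single-gene ratios 192 stayed, 69 moved and 3 reversed; the causes were not tested. The main means over both libraries were 1.18% of kept barcodes as members, and of members 91.4% macrophage-like, 1.67% dendritic-like, 84.3% C1q-positive, 10.5% monocyte-like and 71.2% with low Malat1. Requiring 1000 genes gave 0.582% members, 75.8% macrophage-like, 3.85% dendritic-like, 51.6% C1q-positive, 33.4% monocyte-like and 54.5% low Malat1, with 80 genes higher in C1q-positive members. Requiring 200 genes gave 1.61% members, 90.2% of them C1q-positive. With at least 3 rule genes, 96.9% were macrophage-like and 89.1% C1q-positive, and with at least 3 gate genes 84.5% were macrophage-like and 0.476% dendritic-like. Low Malat1 members were 52.4% under a threshold of 0.05%, 84.3% under 0.3% and 55.7% after thinning. Chosen after seeing the data, allowing 1 UMI of the excluded genes gave 88.1% macrophage-like and 1.34% neutrophil-like members. For C1q-positive against monocyte-like members, leaving out low-Malat1 members gave 56 genes higher and 196 lower, no UMI minimum 1199 and 1806, and members with 3000 UMIs or more 76 higher. Genes lower in members against other kept barcodes were 1735 with 10 CPM added and 1174 with counts under 3 set to 3 UMIs, which also left 193 higher in C1q-positive members. With each library left out, genes higher in members ran from 1906 to 1933 and lower from 6049 to 7097, and C1q-positive against monocyte-like from 378 to 842 and from 597 to 1165. The numbers of genes counted under the alternatives are not given here, so these gene counts cannot be read as shares. The Cx3cr1 ratio, -0.30 on average, became 0.13 with 1000 genes, 0.19 without low-Malat1 members and 0.19 with 3000 UMIs or more. No paired analysis was possible because both libraries were treated as 1 group and no test was made. Depth limits what was detected: members had a median of 1835 and 1662.5 UMIs.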
